A study of Homo sapiens with 6 samples.

Results

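Coagulation and fibrinolysis genes were followed in Huh7, an established line of human hepatocellular carcinoma cells, after 24 h with carfilzomib, an inhibitor of the proteasome, or with DMSO, its solvent. The members are 38 genes taken by name: clotting factors, their inhibitors, the plasmin system, the vitamin K cycle, the export receptor of clotting factors and cell-surface receptors for clotting proteases. Of these, 36 have a row among the 19021 genes of the deposited table. F9 and THBD are not analysed here. Expression was measured by RNA sequencing in 3 carfilzomib and 3 DMSO libraries, all from cells labelled WT and grown in plates. No dose is stated. The labels do not say whether each library is a culture of its own. A p-value here therefore sets the difference against the spread among 3 libraries, and that spread may be technical.

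Clotting is a cascade of proteases that the liver secretes as inactive precursors. Tissue factor on a cell surface starts the cascade with factor VII, the contact system feeds it through factor XI, and thrombin at its end turns fibrinogen into fibrin, which plasmin later dissolves. Hepatocytes make most of these proteins, several of which need a vitamin K-dependent carboxylation before export.

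Values are FPKM, reads scaled to gene length and library size. Levels set side by side between genes, and their order, rest on the gene lengths used, whose annotation no source used here gives. A gene's ratio between the groups does not depend on its length. Of the 36 members, 31 averaged 1 FPKM or more over all 6 libraries and were tested together with all other such genes (11153 in all) by limma on log2(FPKM + 1), and a call is an adjusted p under 0.05. KLKB1, F8, PLG, HRG and HGFAC lay under that level and are given by their reads. F11 and F13B passed it through the DMSO libraries alone and PROCR through the carfilzomib libraries alone, so these 3 had to differ. RNA of a pool of cells was measured, so fewer cells with a transcript and less of it per cell cannot be told apart.

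Most of the tested members fell, among them the fibrinogen chains, prothrombin and factors V, VII, X, XI and XII, while F3, PROCR, TFPI, TFPI2, LMAN1, F2R and F2RL1 rose. Of the 31 tested members, 22 were called lower, 7 higher and 2 were not called. Among all tested genes 81.6% were called, 44.9% lower and 36.7% higher, so a call alone was common. By size of change on the log2(FPKM + 1) scale, 16 members were called and at least 2-fold lower, against 7.84% of all tested genes. On that scale 3 were at least 2-fold higher, against 5.28%. The 16 include F13B and the 3 include PROCR, which had to differ by the filter. The median log2 difference was -1.11 over the tested members and -0.07 over all tested genes. Over the 28 members at or above 1 FPKM in both groups it was -1.12. The carfilzomib and DMSO libraries did not overlap in 29 of the tested members, against 82.8% of all tested genes. When rows of any level were fitted, 24 of the 36 members were called lower, 7 higher and 5 were not called, with 58.7% of all rows called; KLKB1 and PLG were the low members that this fit called lower. Of the library totals behind the FPKM values, the 36 genes together took 0.527%, 0.504% and 0.504% in the carfilzomib libraries, against 0.912%, 0.920% and 0.908% in the DMSO libraries. Most of this difference lay in the fibrinogen chains, with a mean of 0.344% of reads with carfilzomib and 0.698% with DMSO. The other members had a mean of 0.168% with carfilzomib and 0.215% with DMSO.

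**Figure D1:**
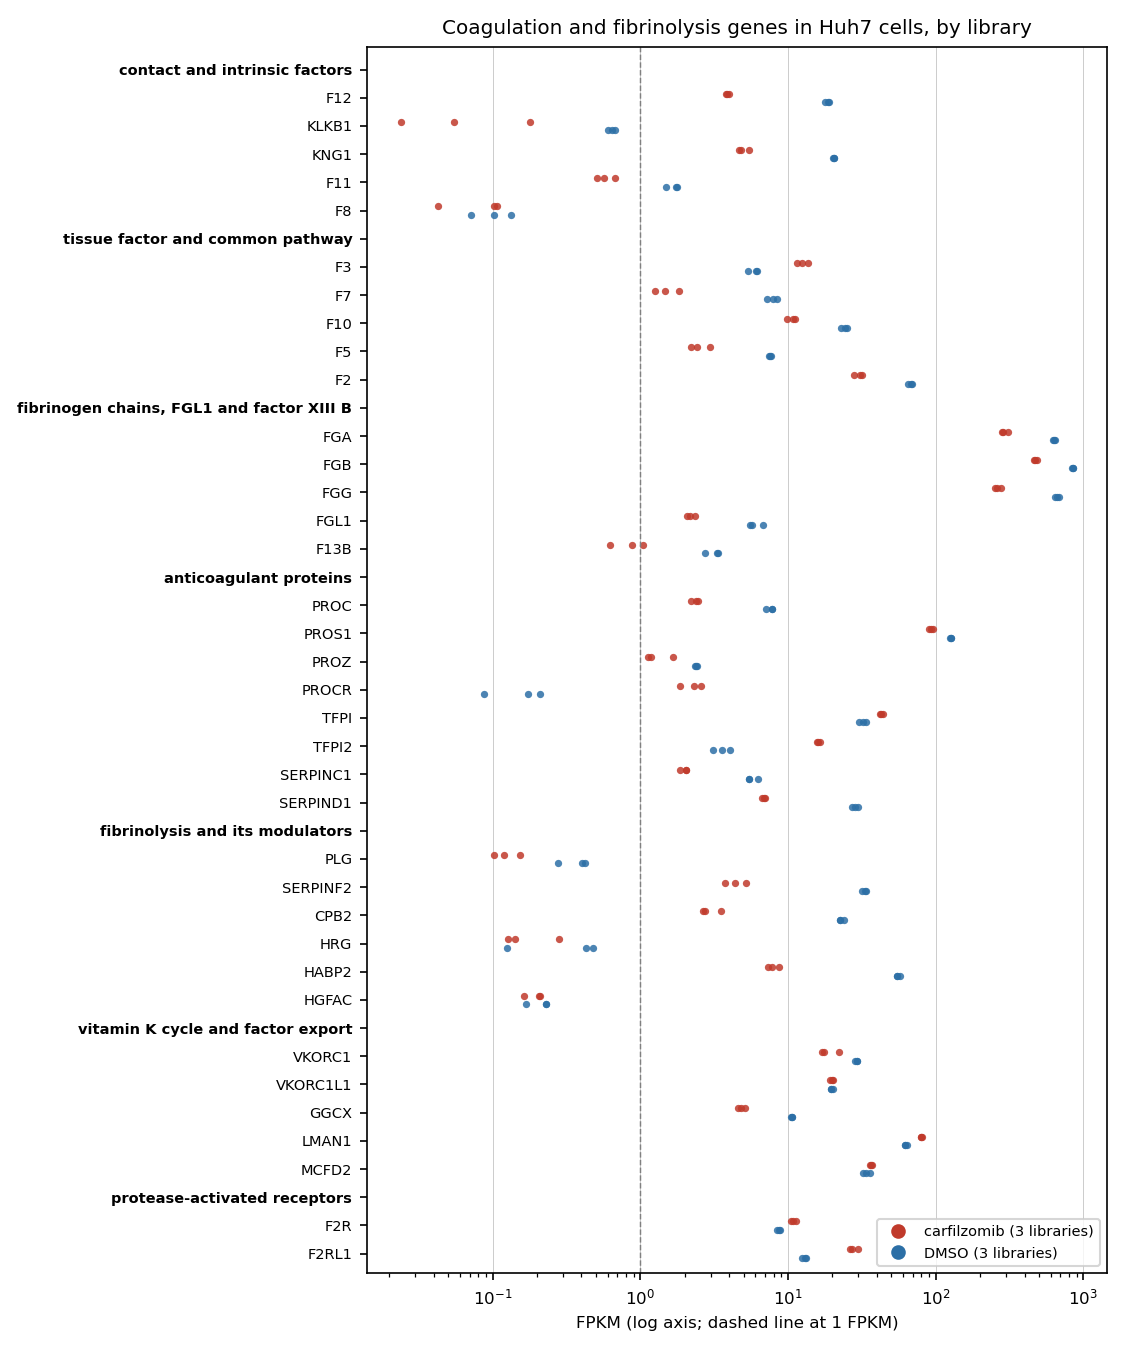
FPKM of the 36 members (log axis) in the 3 carfilzomib libraries (red) and the 3 DMSO libraries (blue), ordered by role, with a dashed line at 1 FPKM. The fibrinogen chains are the highest members in both groups, and F3, PROCR, TFPI, TFPI2, LMAN1, F2R and F2RL1 are the ones whose carfilzomib points lie to the right and were called higher.

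**Figure D2:**
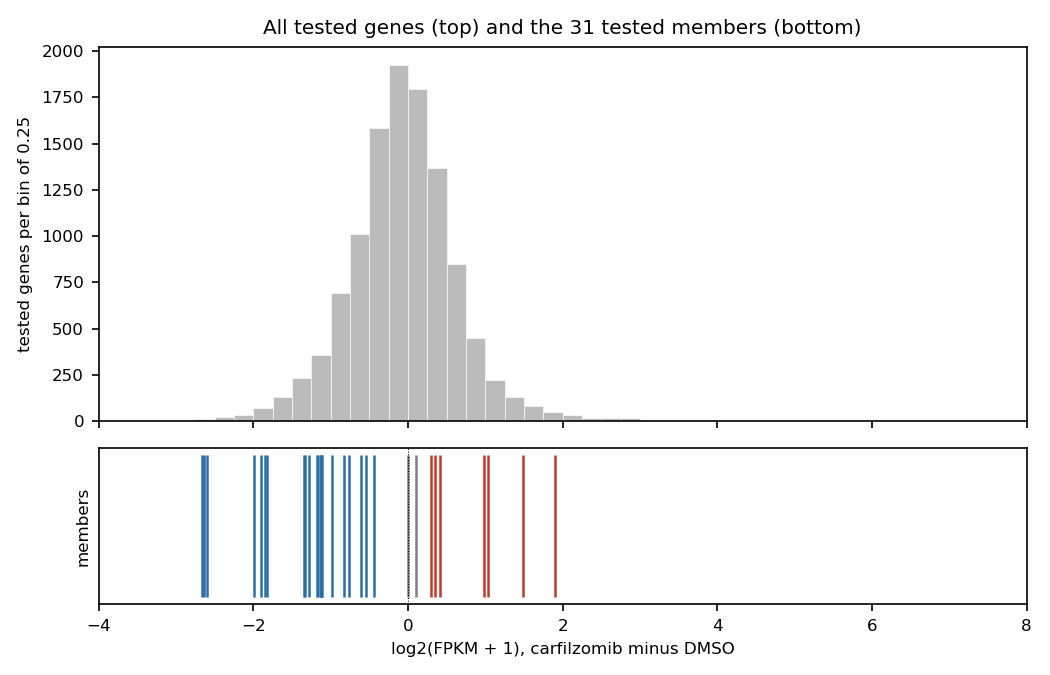
Number of tested genes by log2 difference, carfilzomib minus DMSO, in bins of 0.25 (top) and the log2 difference of each of the 31 tested members as a line (bottom; blue called lower, red called higher, grey not called). The members spread from -2.66 to 1.90, with 16 of them at -1 or below, while the median of all tested genes is -0.07.

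Fibrinogen, the precursor of fibrin, is built of 3 chains, each with its own gene, and these were the most abundant members. FGB, the beta chain, had 486, 473 and 463 FPKM in carfilzomib libraries, against 833, 855 and 846 FPKM in DMSO libraries. FGA, the alpha chain, had 308, 284 and 282 FPKM with carfilzomib, against 635, 643 and 626 FPKM with DMSO. FGG, the gamma chain, had 276, 251 and 261 FPKM with carfilzomib, against 681, 659.6 and 643 FPKM with DMSO. Each chain was lower in every carfilzomib library than in any DMSO library, where 82.8% of all tested genes had groups without overlap. In order of mean level over all genes, FGB stood at place 95 with carfilzomib and 38 with DMSO, FGA at 156 with carfilzomib and 56 with DMSO, and FGG at 173 with carfilzomib and 52 with DMSO.

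The fall was unequal between the chains. The log2 difference was -0.83 for FGB (SE 0.0284, adjusted p = 2.69e-09 by limma), -1.12 for FGA (SE 0.0363, adjusted p = 1.91e-09 by limma) and -1.33 for FGG (SE 0.0386, adjusted p = 9.65e-10 by limma). The FGB level was 1.76, 1.88 and 1.77 times the FGG level in the carfilzomib libraries, against 1.22, 1.30 and 1.32 times in the DMSO libraries. The FGA level was 1.11, 1.13 and 1.08 times the FGG level with carfilzomib, against 0.933, 0.975 and 0.973 times with DMSO. Neither ratio overlapped between the groups. The size of each ratio rests on the gene lengths used, but its change between the groups does not. The 3 chains held 67.1 ± 0.673% of the members' reads with carfilzomib and 76.4 ± 0.282% with DMSO (SD, n = 3 each).

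**Figure D3:**
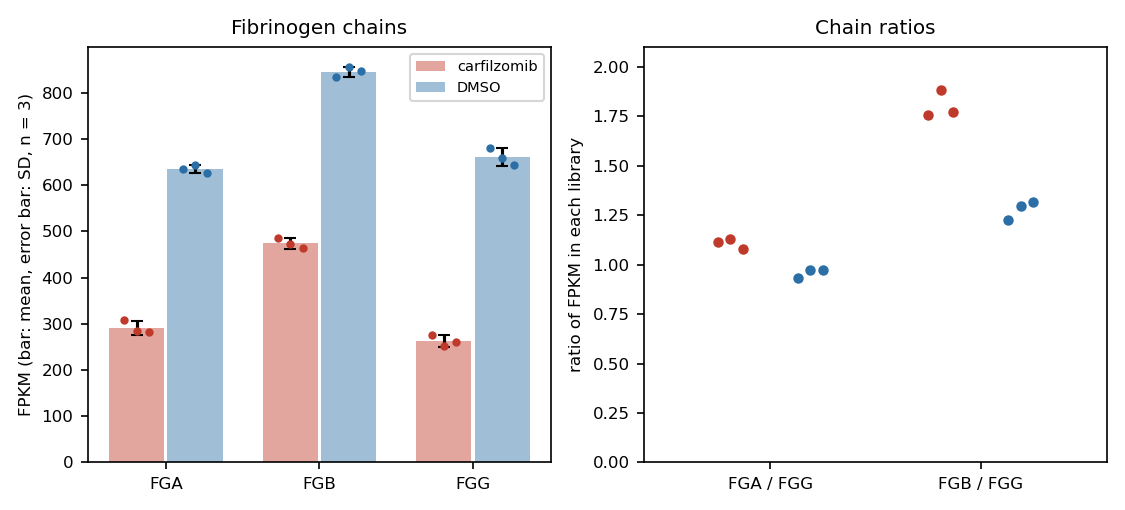
Left, FPKM of the fibrinogen chains FGA, FGB and FGG with carfilzomib (red) and DMSO (blue), where bars are means, error bars SD over 3 libraries and points single libraries. Right, FPKM of FGA and FGB divided by that of FGG in each library, where within each ratio the carfilzomib points lie above the DMSO points.

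The start regions of FGA, FGB and FGG are shown because the genes lie side by side and fell together. RefSeq (build GRCh38.p14) places the FGA window at chr4:154590693-154590992 on the minus strand the first FGB window at chr4:154562730-154563029 on the plus strand and the FGG window at chr4:154612607-154612906 on the minus strand, each from 250 bases before to 50 bases after the transcript start. Capitals in FGA mark the letters of the C/EBP motif (TTGCNNAA) and then of the HNF1 motif (GTTAATNAT), both read from the opposite strand, and capitals in FGB mark the C/EBP motif. The FGG window has neither motif, and its capitals mark an antioxidant response motif (TGACNNNGC). HNF1 and C/EBP are families of liver transcription factors.
FGA: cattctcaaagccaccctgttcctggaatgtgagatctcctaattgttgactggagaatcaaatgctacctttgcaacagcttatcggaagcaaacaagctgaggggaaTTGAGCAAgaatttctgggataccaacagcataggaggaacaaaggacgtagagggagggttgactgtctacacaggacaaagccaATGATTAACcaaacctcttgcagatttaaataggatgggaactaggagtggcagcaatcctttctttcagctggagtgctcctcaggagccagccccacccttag
FGB: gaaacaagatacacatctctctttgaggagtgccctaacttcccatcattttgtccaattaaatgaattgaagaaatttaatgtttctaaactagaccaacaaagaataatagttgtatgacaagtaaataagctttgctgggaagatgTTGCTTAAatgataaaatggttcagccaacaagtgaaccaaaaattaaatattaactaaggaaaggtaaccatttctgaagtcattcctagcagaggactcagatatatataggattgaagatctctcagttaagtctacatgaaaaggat
FGG: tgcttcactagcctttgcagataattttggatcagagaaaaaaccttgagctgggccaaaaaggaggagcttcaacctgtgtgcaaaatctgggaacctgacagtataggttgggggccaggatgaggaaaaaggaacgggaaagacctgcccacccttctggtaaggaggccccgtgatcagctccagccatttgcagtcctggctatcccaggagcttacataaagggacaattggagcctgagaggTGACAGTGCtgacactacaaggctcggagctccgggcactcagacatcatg

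FGL1 and F13B, listed with the fibrinogen chains, were called lower too, as were 44.9% of all tested genes. F13B passed the filter through the DMSO libraries alone and so had to differ. FGL1, a liver-secreted relative of fibrinogen that does not form clots, averaged 2.20 ± 0.139 FPKM with carfilzomib and 6.00 ± 0.656 with DMSO (SD, n = 3 each; log2 difference -1.13, adjusted p = 2.63e-07 by limma). F13B, the carrier subunit of the fibrin cross-linking factor XIII, had 0.622, 1.04 and 0.876 FPKM with carfilzomib, against 2.73, 3.36 and 3.33 with DMSO. Its log2 difference was -1.17 (SE 0.0983, adjusted p = 1.78e-06 by limma).

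The contact system and the intrinsic branch, which can start clotting on charged surfaces, fell in each of the 3 tested genes. Among all tested genes 44.9% were called lower, and F11 passed the filter through the DMSO libraries alone and so had to differ. F12, the zymogen factor XII that starts the contact system, had 3.97, 3.81 and 3.89 FPKM in carfilzomib libraries, against 18.9, 18.7 and 17.9 FPKM in DMSO libraries (log2 difference -2.00, SE 0.0424, adjusted p = 1.53e-10 by limma). KNG1, the kininogen that carries factor XI and prekallikrein and releases bradykinin, had 4.81, 4.65 and 5.48 FPKM with carfilzomib, against 20.3, 20.6 and 20.6 with DMSO (log2 difference -1.85, SE 0.0546, adjusted p = 1.06e-09 by limma). F11, factor XI, had 0.678, 0.565 and 0.511 FPKM with carfilzomib, against 1.50, 1.76 and 1.77 with DMSO (log2 difference -0.76, SE 0.0763, adjusted p = 6.98e-06 by limma). On the log2(FPKM + 1) scale the change of a gene as low as F11 is understated, and its mean level with carfilzomib was 0.348 times that with DMSO.

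KLKB1 and F8 were too low to be tested. KLKB1, plasma prekallikrein, had 23, 3 and 7 reads in the carfilzomib libraries, against 78, 87 and 84 in the DMSO libraries. That is a ratio of 0.135 with a 95% exact interval of 0.0907 to 0.194, which covers counting error only. Carfilzomib replicate 1 was the highest of its group, and without it the ratio of mean FPKM was 0.0612. F8, the cofactor of factor IX that in the body comes mainly from endothelial cells, had 39, 15 and 37 reads with carfilzomib, against 37, 49 and 26 with DMSO. The groups overlapped for F8 and the interval of its ratio, 0.619 to 1.10, includes no change.

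In the tissue factor pathway the receptor that starts clotting rose while the factors it feeds fell. Of its 5 tested genes 1 was called higher and 4 lower, beside 36.7% higher and 44.9% lower among all tested genes. F3, tissue factor, had 11.5, 13.7 and 12.5 FPKM in carfilzomib libraries, against 5.35, 6.09 and 6.16 in DMSO libraries. All carfilzomib values lay above all DMSO values, where 82.8% of all tested genes had groups without overlap. The log2 difference of F3 was 0.98 (SE 0.0693, adjusted p = 4.83e-07 by limma). F7, the protease that binds tissue factor, had 1.82, 1.25 and 1.48 FPKM with carfilzomib, against 8.38, 7.25 and 7.89 with DMSO (log2 difference -1.82, SE 0.0856, adjusted p = 2.36e-08 by limma). F5, the cofactor that speeds thrombin formation, had 2.98, 2.42 and 2.20 FPKM with carfilzomib, against 7.38, 7.66 and 7.60 with DMSO (log2 difference -1.28, SE 0.0767, adjusted p = 1.39e-07 by limma). F2, prothrombin, was the most abundant protease of the set, at 31.8, 27.9 and 30.9 FPKM with carfilzomib, against 68.8, 67.9 and 65.1 with DMSO. Its log2 difference was -1.13 (SE 0.0478, adjusted p = 1.12e-08 by limma), and that of F10, which cleaves prothrombin, was -1.11 (adjusted p = 2.53e-08 by limma), with 10.6 ± 0.627 FPKM with carfilzomib and 24.1 ± 1.29 with DMSO (SD, n = 3 each).

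**Figure D4:**
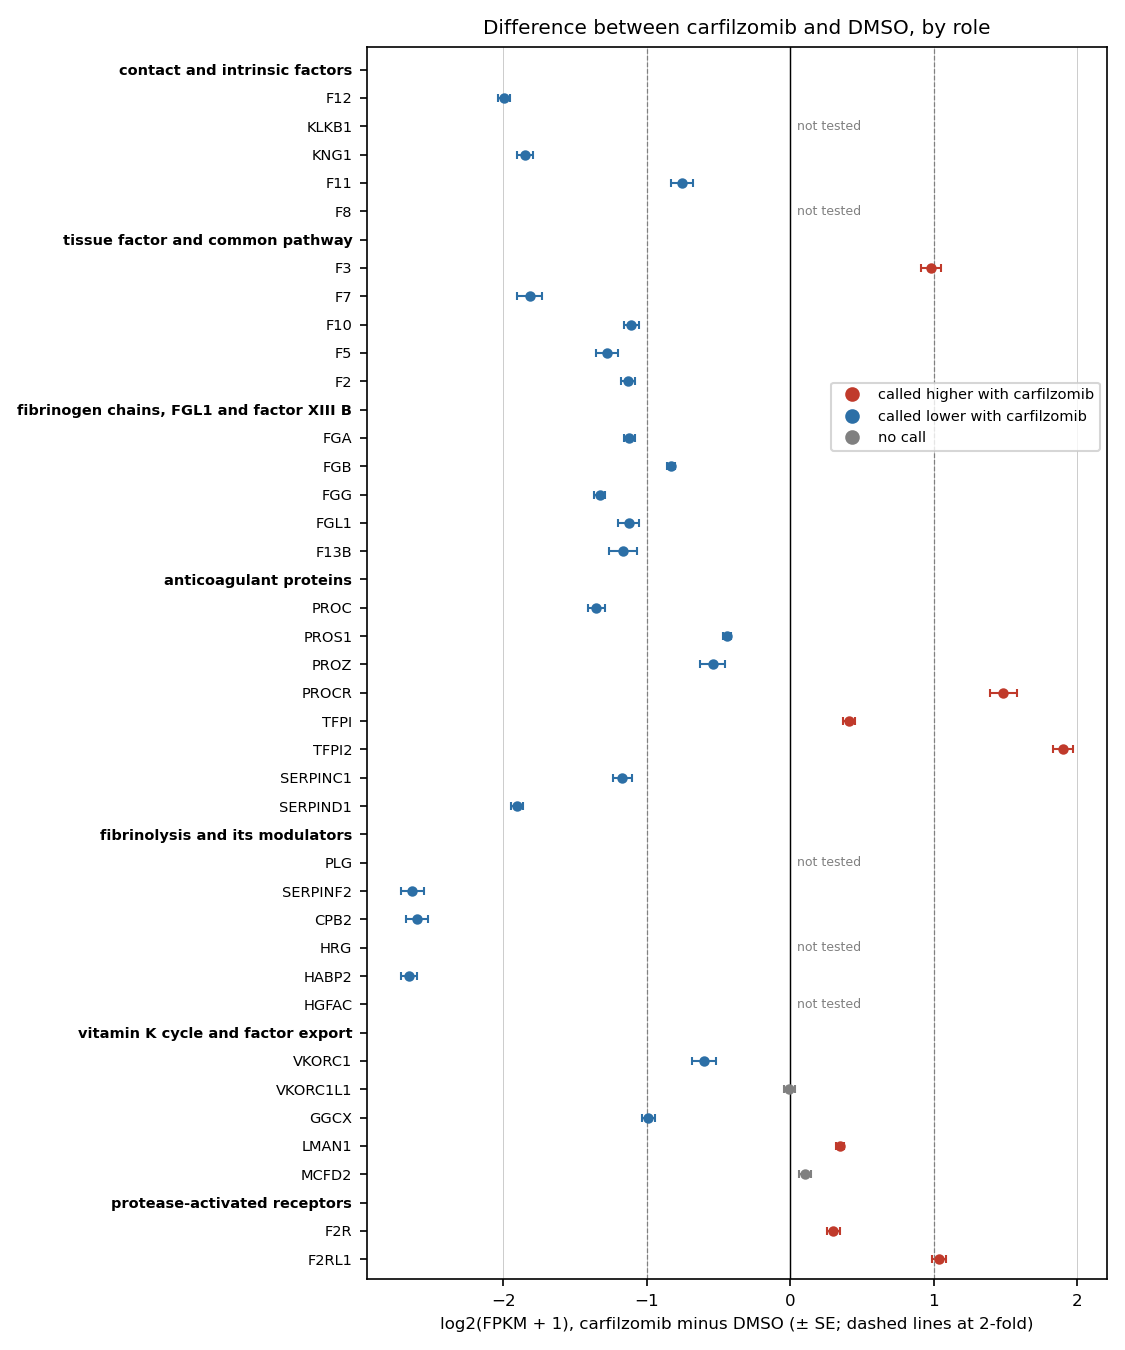
Log2(FPKM + 1) with carfilzomib minus that with DMSO for the 31 tested members, by role, with the SE of the limma fit as bars and dashed lines at 2-fold. HABP2, SERPINF2 and CPB2 lie farthest to the left, at -2.66, -2.64 and -2.60, and TFPI2 farthest to the right, at 1.90.

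Of the 8 tested anticoagulant genes, 5 fell and 3 rose, beside 44.9% called lower and 36.7% called higher among all tested genes. On the log2(FPKM + 1) scale 3 were at least 2-fold lower and 2 at least 2-fold higher, beside 7.84% and 5.28% of all tested genes. The 2 include PROCR, which had to differ by the filter. Antithrombin, heparin cofactor II and the proteins C, S and Z were the ones that fell. SERPIND1, heparin cofactor II, a thrombin inhibitor, had 6.62, 6.88 and 7.04 FPKM with carfilzomib, against 27.3, 28.2 and 29.7 with DMSO (log2 difference -1.91, SE 0.0434, adjusted p = 2.30e-10 by limma). PROC, protein C, which inactivates the cofactors of clotting, had 2.20, 2.40 and 2.46 FPKM with carfilzomib, against 7.81, 7.08 and 7.77 with DMSO (log2 difference -1.35, SE 0.0584, adjusted p = 1.30e-08 by limma). SERPINC1, antithrombin, averaged 1.98 ± 0.104 FPKM with carfilzomib and 5.73 ± 0.489 with DMSO (SD, n = 3 each), a log2 difference of -1.17. PROZ, protein Z, a cofactor in the inhibition of factor X, had 1.13, 1.19 and 1.67 FPKM with carfilzomib, against 2.37, 2.42 and 2.33 with DMSO (log2 difference -0.54, adjusted p = 2.43e-04 by limma). PROS1, protein S, the cofactor of protein C, changed least of these 5, at 93.1 ± 2.44 FPKM with carfilzomib and 127 ± 1.45 with DMSO (SD, n = 3 each; log2 difference -0.44, adjusted p = 3.11e-07 by limma). A near-identical pseudogene of PROS1 exists, so reads of PROS1 are uncertain to the extent that counting shared them.

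The Kunitz-type inhibitors and the protein C receptor rose. TFPI2, an inhibitor deposited in the extracellular matrix that acts on plasmin among other proteases, had 16.0, 16.4 and 15.6 FPKM in carfilzomib libraries, against 3.09, 4.04 and 3.55 in DMSO libraries (log2 difference 1.90, SE 0.0706, adjusted p = 4.61e-09 by limma). TFPI, the inhibitor of the complex of tissue factor with factor VII, had 44.0, 42.9 and 41.7 FPKM with carfilzomib, against 30.4, 32.1 and 33.7 with DMSO (log2 difference 0.41, SE 0.0418, adjusted p = 7.69e-06 by limma). Because F3 rose more, the TFPI level was 3.84, 3.14 and 3.35 times the F3 level with carfilzomib, against 5.68, 5.28 and 5.48 times with DMSO. PROCR, the membrane receptor that presents protein C for activation, had 132, 103 and 145 reads with carfilzomib, against 5, 12 and 10 reads with DMSO. The ratio of its reads was 14.3 (95% exact counting interval 9.67 to 22.0), and its log2 difference on the scale of FPKM + 1, which understates so low a gene, was 1.48 (SE 0.0941, adjusted p = 2.13e-07 by limma). PROCR passed the filter through the carfilzomib libraries alone and so had to differ.

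Of the genes around fibrin breakdown, SERPINF2, CPB2 and HABP2 were tested, and theirs were the largest falls among the tested members on the log2(FPKM + 1) scale. SERPINF2, alpha-2-antiplasmin, the main inhibitor of plasmin, had 4.39, 3.77 and 5.21 FPKM in carfilzomib libraries, against 33.0, 33.5 and 31.8 in DMSO libraries (log2 difference -2.64, SE 0.0809, adjusted p = 1.33e-09 by limma). CPB2, the carboxypeptidase that removes plasmin's docking sites from fibrin, had 3.53, 2.66 and 2.75 FPKM with carfilzomib, against 24.0, 22.6 and 22.5 with DMSO (log2 difference -2.60, SE 0.0766, adjusted p = 1.06e-09 by limma). HABP2, a hyaluronan-binding protease that can activate factor VII, had 8.66, 7.36 and 7.78 FPKM with carfilzomib, against 54.5, 57.2 and 54.4 with DMSO (log2 difference -2.66, SE 0.0530, adjusted p = 1.03e-10 by limma). Among the 11153 tested genes ordered from the most negative difference, HABP2, SERPINF2 and CPB2 took places 11, 13 and 15.

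The remaining genes of this group were near the limit of detection. PLG, plasminogen, had 17, 25 and 20 reads with carfilzomib, against 67, 71 and 47 with DMSO, a ratio of 0.340 (95% exact counting interval 0.251 to 0.456). HRG, a histidine-rich plasma protein that binds plasminogen and heparin, had 10, 11 and 22 reads with carfilzomib, against 34, 10 and 38 with DMSO. Its ratio was 0.533 (interval 0.359 to 0.780), but its groups overlapped, and DMSO replicate 2 was the low library of its group. HGFAC, the protease that activates hepatocyte growth factor, had 17, 13 and 17 reads with carfilzomib, against 19, 19 and 14 with DMSO, and its interval of 0.605 to 1.39 includes no change.

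Vitamin K drives the carboxylation that lets prothrombin, factors VII and X and proteins C, S and Z bind membranes, and the transcripts of all 6 of these proteins were called lower, with log2 differences of -0.44 (PROS1) to -1.82 (F7), where 44.9% of all tested genes were called lower. GGCX, the carboxylase itself, had 4.82, 4.60 and 5.10 FPKM with carfilzomib, against 10.6, 10.5 and 10.6 with DMSO (log2 difference -0.99, SE 0.0473, adjusted p = 2.61e-08 by limma). VKORC1, the reductase that recycles vitamin K and the target of warfarin, had 22.2, 17.1 and 17.4 FPKM with carfilzomib, against 29.4, 28.6 and 29.2 with DMSO (log2 difference -0.60, SE 0.0819, adjusted p = 6.65e-05 by limma). Carfilzomib replicate 1 was the high library of its group, still below every DMSO library. VKORC1L1, the paralog with the same activity, had 19.9, 20.1 and 19.3 FPKM with carfilzomib, against 19.6, 20.3 and 19.6 with DMSO (log2 difference -0.01, SE 0.0354, adjusted p = 0.892 by limma), and its groups overlapped. The VKORC1 level was 1.12, 0.851 and 0.902 times that of VKORC1L1 with carfilzomib, against 1.50, 1.40 and 1.49 times with DMSO.

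LMAN1 and MCFD2 form the receptor that carries factors V and VIII out of the endoplasmic reticulum. LMAN1 rose, with 79.4, 79.4 and 80.3 FPKM in carfilzomib libraries, against 62.0, 61.7 and 63.9 in DMSO libraries (log2 difference 0.35, SE 0.0280, adjusted p = 1.35e-06 by limma). MCFD2 had 36.6, 35.8 and 37.0 FPKM with carfilzomib, against 32.2, 33.6 and 36.2 with DMSO, and was not called (log2 difference 0.10, SE 0.0431, adjusted p = 0.0517 by limma). Its groups overlapped through DMSO replicate 3, without which the adjusted p by limma was 0.00662 (log2 difference 0.15). Without DMSO replicate 1 instead, the adjusted p by limma was 0.168 (log2 difference 0.06). Over 17 alternatives the adjusted p of MCFD2 by limma ran from 0.00299 to 0.168, and it passed in 7 of them.

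Protease-activated receptors, which clotting proteases switch on by cutting their outer end, rose in each of the 2 tested members. Among all tested genes 36.7% were called higher. F2RL1, the receptor cut by tissue factor-bound factor VII and by trypsin, had 26.3, 29.7 and 27.1 FPKM with carfilzomib, against 13.3, 13.1 and 12.5 with DMSO (log2 difference 1.04, SE 0.0494, adjusted p = 2.55e-08 by limma). F2R, the main thrombin receptor, had 10.8, 10.5 and 11.4 FPKM with carfilzomib, against 8.85, 8.70 and 8.45 with DMSO (log2 difference 0.30, SE 0.0451, adjusted p = 1.41e-04 by limma). Neither receptor overlapped between the groups, as was so for 82.8% of all tested genes. The F2RL1 level was 2.43, 2.83 and 2.37 times the F2R level with carfilzomib, against 1.50, 1.51 and 1.47 times with DMSO. F2RL2, a further thrombin-cut receptor that is not among the members, rose more than either, at 23.8 ± 1.15 FPKM with carfilzomib and 2.26 ± 0.104 with DMSO (SD, n = 3 each; log2 difference 2.92, adjusted p = 5.14e-11 by limma).

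Start regions of members with a large difference are shown for both directions. RefSeq (build GRCh38.p14) has windows for 33 of the 38 members. The windows printed are those of HABP2 (its second listed start, chr10:113552803-113553102, plus strand) and SERPIND1 (chr22:20773863-20774162, plus strand), which fell, and of TFPI2 (chr7:93890704-93891003, minus strand) and F3 (chr1:94541710-94542009, minus strand), which rose. These windows were chosen for the motifs they hold: the first listed start of HABP2 and the window of F2RL1, which rose, have none of the motifs searched. In HABP2 the capitals mark, in order, an antioxidant response motif (TGACNNNGC, opposite strand), an AP-1 motif (TGANTCA) that overlaps another antioxidant response motif, a C/EBP motif and an HNF1 motif. In SERPIND1 they mark an antioxidant response motif and an HNF4 motif (CAAAGTCCA or CAAAGTTCA). In TFPI2 they mark an AP-1 motif, and in F3 a pair of AP-1 motifs and then a TATA motif (TATAAA, opposite strand).
HABP2: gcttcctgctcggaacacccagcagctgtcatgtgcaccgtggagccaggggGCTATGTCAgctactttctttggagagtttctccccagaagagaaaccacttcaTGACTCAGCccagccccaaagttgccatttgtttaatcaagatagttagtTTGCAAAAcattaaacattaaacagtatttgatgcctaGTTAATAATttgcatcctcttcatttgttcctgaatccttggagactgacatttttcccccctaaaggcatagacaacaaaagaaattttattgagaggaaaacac
SERPIND1: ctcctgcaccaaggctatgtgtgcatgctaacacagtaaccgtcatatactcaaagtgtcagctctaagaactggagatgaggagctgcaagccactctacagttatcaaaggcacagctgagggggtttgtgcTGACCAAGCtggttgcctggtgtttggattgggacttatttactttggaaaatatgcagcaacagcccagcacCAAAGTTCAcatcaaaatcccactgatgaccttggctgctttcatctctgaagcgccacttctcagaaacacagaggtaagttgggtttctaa
TFPI2: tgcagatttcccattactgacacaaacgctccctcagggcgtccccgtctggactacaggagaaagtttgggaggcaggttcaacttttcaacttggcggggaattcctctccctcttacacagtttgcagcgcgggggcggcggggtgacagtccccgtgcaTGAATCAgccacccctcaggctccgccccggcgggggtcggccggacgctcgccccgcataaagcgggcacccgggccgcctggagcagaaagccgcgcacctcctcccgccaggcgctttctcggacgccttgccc
F3: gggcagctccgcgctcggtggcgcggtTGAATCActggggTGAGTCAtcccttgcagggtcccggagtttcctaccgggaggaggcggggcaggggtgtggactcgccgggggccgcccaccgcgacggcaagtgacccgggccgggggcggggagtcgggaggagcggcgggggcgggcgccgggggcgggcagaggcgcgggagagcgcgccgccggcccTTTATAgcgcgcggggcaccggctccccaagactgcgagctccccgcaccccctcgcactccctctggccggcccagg

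Each motif was looked for on both strands in all 35116 RefSeq windows of the same length. The 19 lower members with a window have 22 windows and the 6 higher members have 6. HNF1 letters stood in 3 of the 22 windows of lower members (F13B, FGA and HABP2), in 0 of the 6 of higher members and in 0.792% of all windows. HNF4 letters stood in 3 of the 22 (F10, PROZ and SERPIND1), in 0 of the 6 and in 0.681% of all. C/EBP letters stood in 7 of the 22, which belong to CPB2, FGA, FGB (with 1 site seen from 2 starts), HABP2, KNG1 and PROC, in 0 of the 6 and in 10.5% of all. AP-1 letters stood in 1 of the 22 (HABP2), in 2 of the 6 (F3 and TFPI2) and in 7.71% of all. Antioxidant response letters stood in 6 of the 22, in 0 of the 6 and in 13.3% of all. TATA letters stood in 1 of the 22 (F13B), in 2 of the 6 (F3 and PROCR) and in 11.5% of all. The heat shock element (GAANNTTC) was in 0 of the 22, 0 of the 6 and 6.77% of all. Among windows of tested genes alone the shares were 0.630% for HNF1, 0.669% for HNF4, 7.48% for C/EBP, 5.33% for AP-1, 14.8% for antioxidant response, 6.45% for TATA and 4.91% for the heat shock element. A match is a run of letters, not a shown binding site, and no test was made. Among the untested members, HGFAC and PLG have HNF1 letters and KLKB1 has C/EBP letters.

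**Figure D5:**
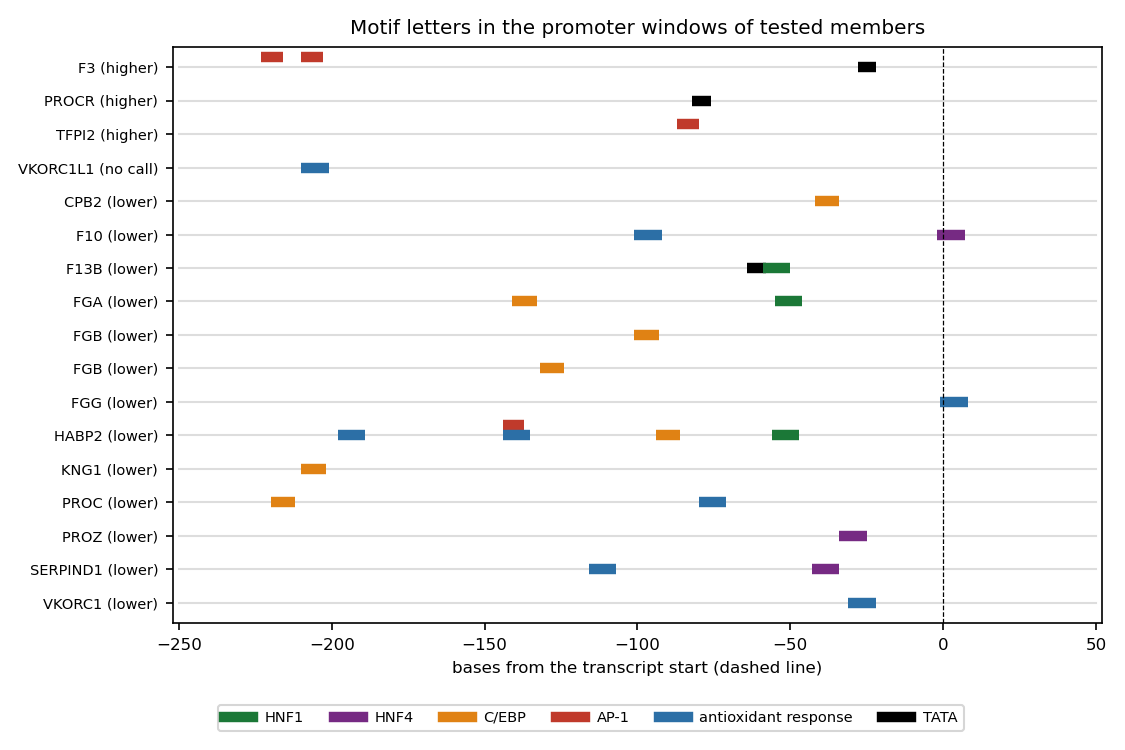
Places of the motif letters, in bases from the transcript start (dashed line), in the RefSeq windows of tested members that hold any, 1 row per window, with the call of each gene in brackets. HNF1 letters (green) lie between -59 and -55 at their first base in F13B, FGA and HABP2, and AP-1 letters (red) appear in F3, TFPI2 and HABP2.

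Most of the liver transcription factors tested fell. HNF4A averaged 17.1 ± 1.18 FPKM with carfilzomib and 39.4 ± 0.375 with DMSO, and CEBPA 35.4 ± 1.02 with carfilzomib and 131 ± 9.90 with DMSO (SD, n = 3 each; log2 differences -1.16 and -1.86). Of 14 liver factors tested, 11 were called lower, 2 higher and 1 was not called, with a median log2 difference of -1.21, beside 44.9% lower, 36.7% higher and a median of -0.07 among all tested genes. The largest falls were in ONECUT1 (1.01 ± 0.132 FPKM with carfilzomib, 9.46 ± 0.481 with DMSO) and the bile acid receptor NR1H4 (3.57 ± 0.589 with carfilzomib, 17.2 ± 0.297 with DMSO). CEBPB (138 ± 1.42 with carfilzomib, 119 ± 5.16 with DMSO) and CEBPD (109 ± 2.92 with carfilzomib, 89.9 ± 0.837 with DMSO) were the factors called higher. Whether these factors had a part in the members' differences was not tested.

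Other genes of the same systems were read from lists outside the 38 members. Among coagulation regulators 7 of 9 tested were called lower and 2 higher, beside 44.9% and 36.7% of all tested genes. SERPINA10, one of the 7, passed the filter through the DMSO libraries alone and so had to differ. SERPINA5, the protein C inhibitor, had 12.6 ± 1.33 FPKM with carfilzomib and 38.1 ± 1.21 with DMSO (SD, n = 3 each), and SERPING1, the inhibitor of the contact proteases and of complement C1, 107 ± 7.25 with carfilzomib and 271 ± 4.92 with DMSO. The genes called higher were F2RL2, given above, and ANXA5, a protein that shields the lipid surface clotting needs (261 ± 6.84 with carfilzomib, 179 ± 3.93 with DMSO).

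Of 11 tested genes of plasminogen activation 7 were called higher, 3 lower and 1 was not called, beside 36.7% higher and 44.9% lower among all tested genes. Of the 7, PLAUR and SERPINB2 passed the filter through the carfilzomib libraries alone and so had to differ. SERPINE2, a cell-bound inhibitor of thrombin and other serine proteases, had 92.7 ± 2.57 FPKM with carfilzomib and 6.53 ± 0.522 with DMSO (SD, n = 3 each; log2 difference 3.64, adjusted p = 1.54e-11 by limma). PLAU, the activator urokinase, fell to 2.15 ± 0.325 FPKM with carfilzomib, against 6.60 ± 0.705 with DMSO, and PLGRKT, a plasminogen receptor, to 1.88 ± 0.242 with carfilzomib, against 3.12 ± 0.153 with DMSO.

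Of 7 tested enzymes and proteins that finish clotting factors, 2 were called higher, 4 lower and 1 was not called. Among all tested genes 36.7% were called higher and 44.9% lower. FURIN, the protease that trims factor precursors, had 78.5 ± 4.51 FPKM with carfilzomib and 183 ± 2.22 with DMSO (SD, n = 3 each; log2 difference -1.21), and NQO1, a quinone reductase able to act on vitamin K, 230.4 ± 5.25 with carfilzomib and 392 ± 16.9 with DMSO. TPST1, which adds sulfate to tyrosines of clotting proteins, had 25.2 ± 0.840 with carfilzomib and 15.3 ± 0.443 with DMSO, and CALU, a calcium-binding protein that restrains the carboxylase, 103 ± 0.892 with carfilzomib and 72.1 ± 1.05 with DMSO. Of other carboxylated proteins a single gene was tested, PRRG4 (1.44 ± 0.142 with carfilzomib, 1.92 ± 0.130 with DMSO, adjusted p = 0.00667 by limma).

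The libraries held 38386581 to 39651170 reads. Across tested genes the Pearson r of log2(FPKM + 1) was 0.997 to 0.998 within groups and 0.912 to 0.916 between them, and replicates were less alike than counting alone would make them. All 8 hepatocyte markers were expressed, with a summed level of 3688 to 3824 FPKM with carfilzomib and 9032 to 9231 with DMSO, and all 8 were called lower (median log2 difference -1.32), where 44.9% of all tested genes were called lower. How far the members' falls go with the hepatocyte genes as a whole was not tested. Of 3 endothelial markers read, PECAM1 passed 1 FPKM and the sum was 2.38 to 2.96 FPKM with carfilzomib and 3.72 to 4.33 with DMSO, with TEK at 0 in the DMSO libraries. Of 4 platelet markers 0 passed, with sums of 0.132 to 0.623 FPKM with carfilzomib and 0.195 to 0.544 with DMSO. Of 5 leukocyte markers CD68 passed, at 46.9 FPKM with carfilzomib and 33.2 with DMSO (sums of 46.9 to 47.9 FPKM with carfilzomib and 34.2 to 35.0 with DMSO). When rows of any level were fitted, 2 of these 5 were called higher, 1 lower and 2 were not called, with 58.7% of all rows called. The lower one was CD14, at 0.314 FPKM with carfilzomib and 1.31 with DMSO. Of 6 fibroblast markers COL1A2 and LUM passed (sums of 15.3 to 15.4 with carfilzomib and 19.2 to 19.6 with DMSO). The part of such cells in the results was not tested.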

How the data were processed

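The authors deposited 1 table of FPKM values with 19021 rows named by gene symbol and a column for each of the 6 libraries. Stranded TruSeq mRNA libraries were built from mirVana-isolated RNA, per the labels' protocols. Tools listed in the submitters' processing notes, without role or order, are DESeq2, fastp, HISAT2, HTSeq and R 3.2.0, and the build listed is GRCm39, a mouse build, although the row names are human symbols. No coordinate was therefore taken for the table's genes, and promoter windows are RefSeq's own. How reads shared by overlapping or similar genes were counted, and with which strand setting, no source used here gives.

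FPKM values proved to be whole reads over gene length and library total in 19018 rows (relative tolerance 1e-10), which gave the library totals and each gene's reads as the smallest fitting whole numbers, so a gene's reads may be too low by a whole factor. GADD45A, GADD45B and GADD45G did not come out whole. Reads were used for genes too low to test, for shares and for limma-voom, and intervals cover counting error only.

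Genes with a mean of at least 1 FPKM (11153) were fitted with limma 3.58.1 in R 4.3.3 on log2(FPKM + 1), carfilzomib against DMSO, with a mean-variance trend and two-sided tests, and p-values were adjusted over all of them by Benjamini-Hochberg. The scripts were tested on simulated data. Members and lists were chosen with earlier results of these data known. Every member is named. Full values go to members that rose and to the 3 largest differences of each role, and from other lists the 2 largest rises and falls are named, besides HNF4A and CEBPA, named for the motifs searched. Some genes that these rules name are not reported here. Samples with the same number in both groups did not deviate together (correlations of -0.01, -0.00 and 0.01), so the libraries were not paired. Alternatives were other pseudocounts, filters, scalings and fits, the replicate number as a block, and each library left out.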

Additional observations from a re-analysis of the deposited data

How the results depend on the processing

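Calls held under all 17 alternatives for 30 of the 31 tested members wherever they were tested, the exception being MCFD2. The count of members called lower was 22 in every alternative other than the changes of filter, and 7 or 8 were called higher. A mean of at least 5 FPKM left 23 members, with 15 lower and a median log2 difference of -0.99, and 3246 of all genes called lower. Without a filter 24 members were lower and the median was -0.79. With a pseudocount of 5, 9 members were at least 2-fold lower and the median was -0.62, and with quantile normalization 15 were and the median was -0.997. The count at least 2-fold lower was 18 with a pseudocount of 0.1, with limma-voom and with each library scaled to the same FPKM sum. Median-of-ratios scaling called 4572 genes higher and 4507 lower over all, against 4089 and 5007 for FPKM as deposited. With libraries left out in turn, 8782 to 8976 genes were called, 16 or 17 members were at least 2-fold lower, and the median of members lay between -1.10 and -1.05. With the replicate number as a block 9054 genes were called, against 9096, which says little because same-numbered libraries share only a number. With 3 libraries a group, the reads of HGFAC (47 with carfilzomib, 52 with DMSO) and F8 (91 with carfilzomib, 112 with DMSO) allow no statement on small differences.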

Other observations

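Several members are neighbours in the genome, so their differences can be set side by side. F7, F10 and PROZ start within 52.9 kb on chromosome 13 and are read from the same strand, and their mean levels with carfilzomib were 0.193, 0.441 and 0.560 times those with DMSO. KLKB1 and F11 start 38.7 kb apart on chromosome 4, with ratios of 0.134 and 0.348. HRG and KNG1 start 51.3 kb apart on chromosome 3, with ratios of 0.532 and 0.243, though the HRG groups overlapped. The fibrinogen genes FGB, FGA and FGG start within 49.7 kb on chromosome 4, with ratios of 0.561, 0.459 and 0.398. All of these ratios were below 1, but the median log2 difference of all tested genes was itself below 0, at -0.07. Of all tested genes 44.9% were called lower, which asks more than a ratio below 1. KLKB1 and HRG were not tested. F11 passed the filter through the DMSO libraries alone and so had to differ. Starts are those of RefSeq, build GRCh38.p14.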
